A study of Triticum aestivum with 16 samples.

Results

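Among 61115 wheat probe sets measured in stem tops of 8 sister lines, 107 differed widely between lines without a step between neighbouring line means over 40% of their range. They were chosen by 4 limits on log2 intensity, namely a mean over the 16 arrays of at least 6, a range of the 8 line means of at least 1.5, a largest gap between neighbouring sorted line means of at most 40% of that range, and every difference between the 2 arrays of a line under 50% of the range. The mean limit left 17840 probe sets, the range limit 624 of these and the limit on replicate differences 281. Of the 281, 107 met the gap limit and are called graded here, 94 had a gap over 60% of the range and are called on-off, and 80 lay between. Because these limits use the line means themselves, the ranges, gaps, orders and line contrasts of the members are given as a description without a test.

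The 8 lines (SB3, SB10, SB57, SB62, SB69, SB109, SB165 and SB169) are recombinant inbreds from a Seri M82 x Babax population, grown rain-fed in the field, with 2 field replicates and 1 Affymetrix array per replicate. Each sample pooled the peduncle and the internode beneath it, sheath included, of several main tillers of 1 plot at anthesis, so a level is an average over stem, sheath and their cell types. In such bulk tissue, fewer cells of a type and less RNA per cell cannot be told apart. No parent was among the samples, and all 8 lines shared the site, the season and the sampling stage. None of the marker genes listed for sheath mesophyll, xylem and fibres, vascular tissue, growth or pollen could be matched to a probe set, so the tissue label was not checked against markers.

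The wheat stem stores water-soluble carbohydrate, largely fructan, around flowering and releases it to the grain later. While it does so, the upper internodes still complete elongation and build walls of cellulose, xylan and lignin. Recombinant inbred lines are nearly homozygous mosaics of their parents, and transcripts in such a population may differ between lines in steps or by degrees.

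Array medians lay between 23.56 and 25.02 intensity units, and replicates of a line correlated at 0.984 to 0.995. Lines SB165 (scores -12.99 and 39.97) and SB3 (10.6 and 64.3) had replicates far apart on the first principal component of the 30450 brighter probe sets (mean above the median) that were no members. With probe sets centred, the closest match of an array was its line's other replicate for 15 of the 16 arrays over the members, against 12 over all probe sets, a difference that the limit on replicate differences builds in. The centred correlation of replicates over the members was lowest in SB165, at 0.31, and highest in SB169, at 0.889.

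Most members lay above the dim end of the scale. Their mean log2 intensity had a median of 7.18 and ran from 6.01 to 11.37. The range of line means had a median of 1.88 log2 units, a 3.69-fold span, and the widest was 5.38, or 41.8-fold. In 49 members the range was at least 2 log2 units and in 11 at least 3. The lowest line mean lay below 4 in 3 of the 107, against 16 of the 94 on-off probe sets. At the edges of the rule, the largest gaps just inside were 39.6%, 39.8% and 39.9% of the range and those just outside were 40.4%, 40.5% and 40.7%. The narrowest member had a range of 1.50 log2 units, and a further 78 probe sets met every limit but that on the mean.

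The order of the lines was not spread evenly over the members. SB10 was the highest line in 46 members and SB169 in 25, whereas SB69 was highest in 1. SB62 was the lowest line in 54 and SB69 in 19. SB10 stood above SB62 in 94 of the 107 members, against 57 of the 94 on-off probe sets and 8290 of the 17840 probe sets with a mean of at least 6. The full order of 8 lines still varied widely, with 83 distinct orders among the 107, and the most frequent one (SB10, SB3, SB69, SB165, SB109, SB169, SB57, SB62 from high to low) occurred 7 times. Mean ranks, counted from 1 for the highest line, were 2.83 in SB10, 3.04 in SB3, 4.18 in SB165, 4.46 in SB109, 4.50 in SB169, 4.91 in SB69, 5.34 in SB57 and 6.76 in SB62. In the on-off probe sets they lay between 4.03 in SB10 and 5.05 in SB69. The 80 probe sets with gaps between 40% and 60% had much the same order as the graded ones, with mean ranks of 2.96 in SB3, 3.05 in SB10 and 6.48 in SB62, so the order is not particular to graded members. SB10 was highest in 31 of these 80 and SB62 lowest in 34.

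Grouping the members by the correlation of their line means (average linkage, at 1 minus r of 0.5) gave a first pattern of 54 members, a second of 28, and 25 members in 10 small clusters of at most 5. In the first pattern SB10 was highest in 40 members and SB62 lowest in 40, with SB3 next to SB10 and with SB57 and SB169 next to SB62. In the second pattern SB169 was highest in 21 of 28 members, while SB69 was lowest in 18 and SB62 in 9. SB169 thus stood at the low end of the first pattern, at a median of 28.6% of the range, and at the top of the second. SB10 stood at the top of the first pattern and at a median of 39.2% of the range in the second. SB69 lay in the upper part of the range in the first pattern, at a median of 64.4%, and at the bottom of the second.

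**Figure D1:**
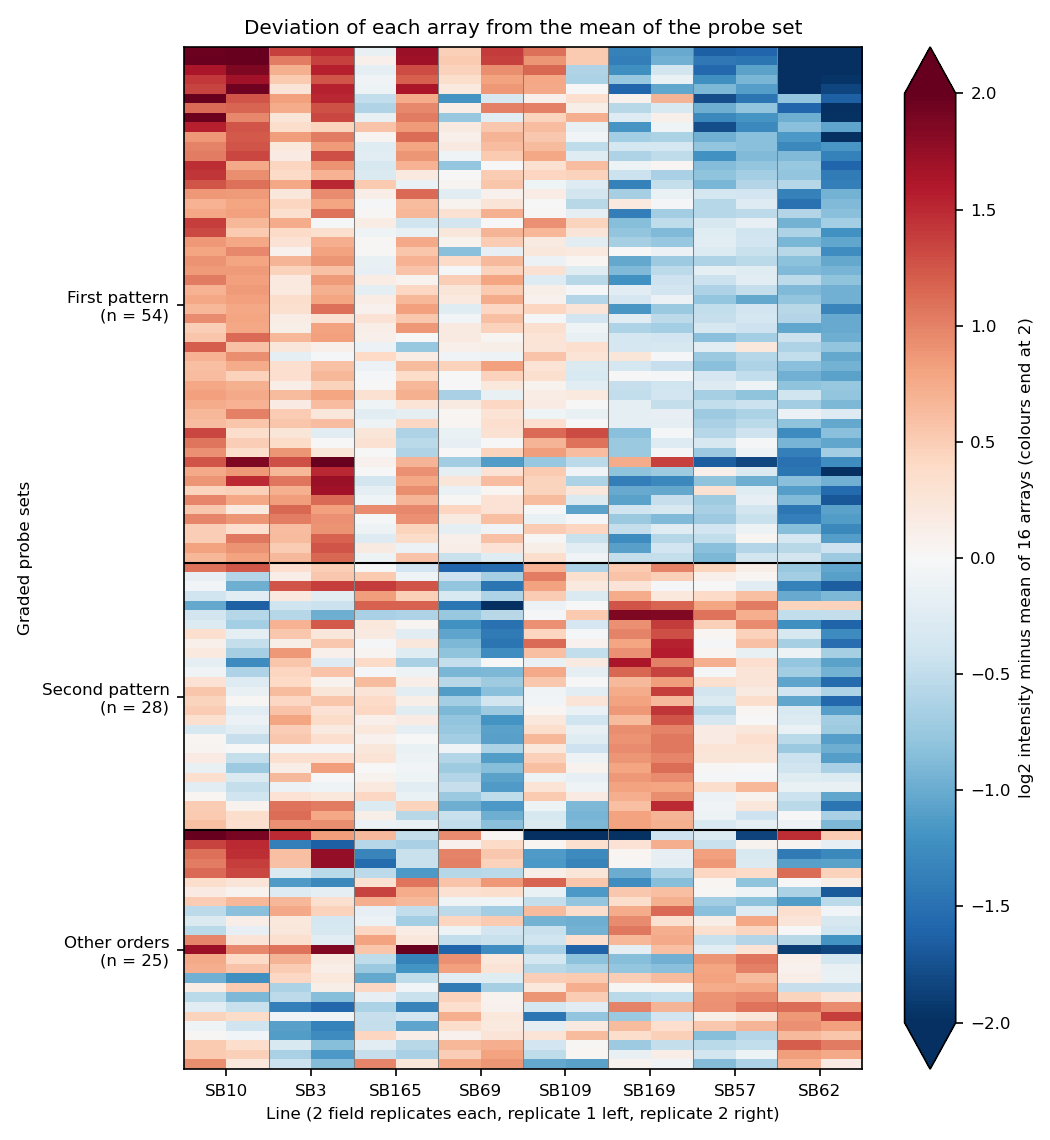
Each row is 1 of the 107 graded probe sets and each column 1 array, coloured by log2 intensity minus the mean of the 16 arrays. The 54 members of the first pattern run from high in SB10 to low in SB62, with the widest step of the median between SB109 and SB169. The 28 of the second pattern are high in SB169 and low in SB69 and SB62, and the 25 others follow neither.

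The medians of the patterns by array showed both overlaps and steps between lines. In the first pattern the median deviation from the probe set mean was 0.88 and 0.84 log2 units in SB10, 0.44 and 0.85 in SB3, -0.04 and 0.67 in SB165, 0.06 and 0.45 in SB69, 0.32 and -0.07 in SB109, -0.64 and -0.39 in SB169, -0.69 and -0.51 in SB57, and -0.87 and -1.05 in SB62 (field replicates 1 and 2). SB62 lay at the low end, SB10 was overlapped by SB3 at the high end, and the arrays of SB165, SB69 and SB109 overlapped in the middle. The widest step lay between SB109 and SB169, with median deviations of the line means of 0.15 and -0.46. All arrays of SB10, SB3, SB165, SB69 and SB109 stood at -0.07 or higher, and all of SB169, SB57 and SB62 at -0.39 or lower. In the second pattern it was 0.81 and 1.03 in SB169, 0.46 and 0.31 in SB3, 0.04 and 0.24 in SB57, 0.20 and -0.10 in SB165, 0.40 and -0.13 in SB109, 0.08 and -0.34 in SB10, -0.46 and -1.01 in SB62, and -0.75 and -1.02 in SB69. Both SB169 arrays stood above all others there, and SB62 and SB69 overlapped at the bottom. SB165 replicate 2 stood 0.66 log2 units above replicate 1 in the median member of the first pattern, which is wider than the distance between several neighbouring lines.

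**Figure D2:**
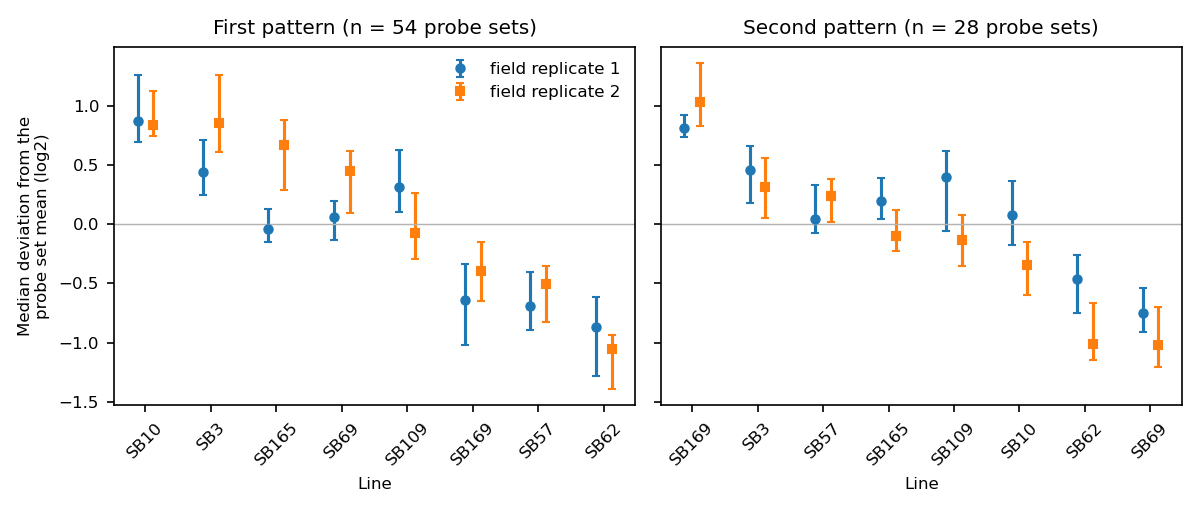
Median deviation from the probe set mean by line for the 2 patterns; circles are field replicate 1, squares field replicate 2, and bars span the quartiles over the probe sets of the pattern. SB10, overlapped by SB3, lies at the top of the first pattern and SB62 at its bottom. SB169 lies at the top of the second pattern, with SB69 and SB62 overlapping at its bottom.

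TUBA, an alpha-tubulin and so a subunit of the microtubules that guide cellulose deposition in growing walls, belonged to the first pattern. Its log2 intensity in field replicates 1 and 2 was 9.51 and 8.72 in SB10, 8.87 and 8.46 in SB109, 8.43 and 8.88 in SB69, 8.58 and 8.52 in SB3, 8.11 and 8.05 in SB165, 7.95 and 7.81 in SB57, 7.41 and 7.32 in SB169, and 7.58 and 7.00 in SB62. SB10, SB109, SB69 and SB3 overlapped in turn and lay above the other 4 lines, of which SB169 and SB62 also overlapped. The line means spanned 1.83 log2 units, or 3.55-fold, and the largest gap was 28.1% of that. A second probe set assigned to TUBA, far brighter at a mean of 12.68, had the same line on top and a range of 0.46 log2 units, and its line means correlated with those of the first at 0.832 over the 8 lines. That probe set was not called in limma's F-test (adjusted p = 0.452).

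The probe set of LOC542997, with the recorded synonym XIP-I, measures a xylanase inhibitor protein, which binds microbial xylanases. Its log2 intensity was 6.85 and 6.78 in SB10, 6.65 and 6.81 in SB3, 6.33 and 6.73 in SB165, 6.17 and 6.22 in SB109, 5.37 and 5.87 in SB69, 5.53 and 5.65 in SB169, 5.62 and 5.24 in SB62, and 5.36 and 5.23 in SB57. SB10, SB3 and SB165 overlapped in turn at the top and the last 4 lines in turn at the bottom, with SB109 alone between them. Its largest gap, 37.8% of the range of 1.52 log2 units, was close to the limit. The other probe set of the gene, whose identifier differs only in its suffix, narrowly missed the rule with a range of 1.33 log2 units and a gap of 41.7%, and its line means correlated at 0.992 with those of the member.

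LOC543313 had the widest range among the members paired with a gene, and the reference table gives no function for it. It stood at 11.68 and 10.81 in SB10, 10.37 and 11.05 in SB3, 9.63 and 10.22 in SB169, 9.65 and 9.89 in SB109, 9.06 and 10.28 in SB165, 8.35 and 9.22 in SB69, 8.76 and 7.91 in SB62, and 7.77 and 8.09 in SB57. Each line overlapped with its neighbour in this order except SB3 with SB169. The span was 3.31 log2 units, or 9.93-fold, with a largest gap of 26.8%.

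LOC606352 was represented by 2 members of the first pattern, and again no function is recorded. At the member ending in _s_at the line means ran from 8.11 ± 0.60 in SB3 and 7.84 ± 0.08 in SB10 to 6.27 ± 0.06 in SB169 and 5.26 ± 0.43 in SB62 (SD, n = 2 each). At the other member the same lines stood at 7.45 ± 0.68, 6.72 ± 0.02, 5.24 ± 0.01 and 4.93 ± 0.31 (SD, n = 2 each). The 2 members correlated at 0.964 over the lines. A further probe set of the gene, with a mean of 4.85 and hence below the level limit, correlated with them at 0.944 and 0.887 and spanned 2.26 log2 units.

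LOC542781 and LOC543137 completed the first pattern among members with a gene, both with SB169 as the lowest line. LOC542781 averaged 8.61 ± 0.03 in SB10 and 6.77 ± 0.48 in SB169, a range of 1.84 log2 units (SD, n = 2 each). LOC543137 averaged 8.66 ± 0.39 in SB3 and 6.85 ± 0.49 in SB169, a range of 1.82 (SD, n = 2 each). No function is recorded for either. A further probe set of LOC543137, dim at a mean of 3.98, spanned 0.64 log2 units and correlated with the member at 0.662. It was not called in limma's F-test (adjusted p = 0.497).

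The second pattern held 3 members with a gene, LOC543422, LOC542839 and LOC543492, none with a recorded function. LOC542839 stood at 9.15 and 9.34 in SB169, 8.93 and 8.57 in SB109, 8.69 and 8.62 in SB3, 8.83 and 8.28 in SB165, 8.30 and 8.48 in SB57, 8.45 and 8.01 in SB10, 7.67 and 7.91 in SB69, and 7.97 and 7.37 in SB62. SB169 lay above all other lines, SB69 and SB62 overlapped at the bottom and lay below the rest, and the 5 lines between overlapped in turn. The member most like LOC543492 was LOC542839 (r = 0.926 over the 8 lines), and LOC543492 averaged 7.95 ± 0.50 in SB109, 7.80 ± 0.06 in SB169 and 6.39 ± 0.27 in SB62 (SD, n = 2 each). LOC543422, a bright probe set with a mean of 10.03, averaged 11.27 ± 0.46 in SB169 and 9.01 ± 0.31 in SB69 (SD, n = 2 each). A pair of other probe sets of LOC543422 also had SB169 on top and correlated with it at 0.74 and 0.77, but both missed the rule on 2 limits, with largest gaps of 45.8% and 42.7% of the range and replicate differences of up to 71.3% and 66.7%.

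**Figure D3:**
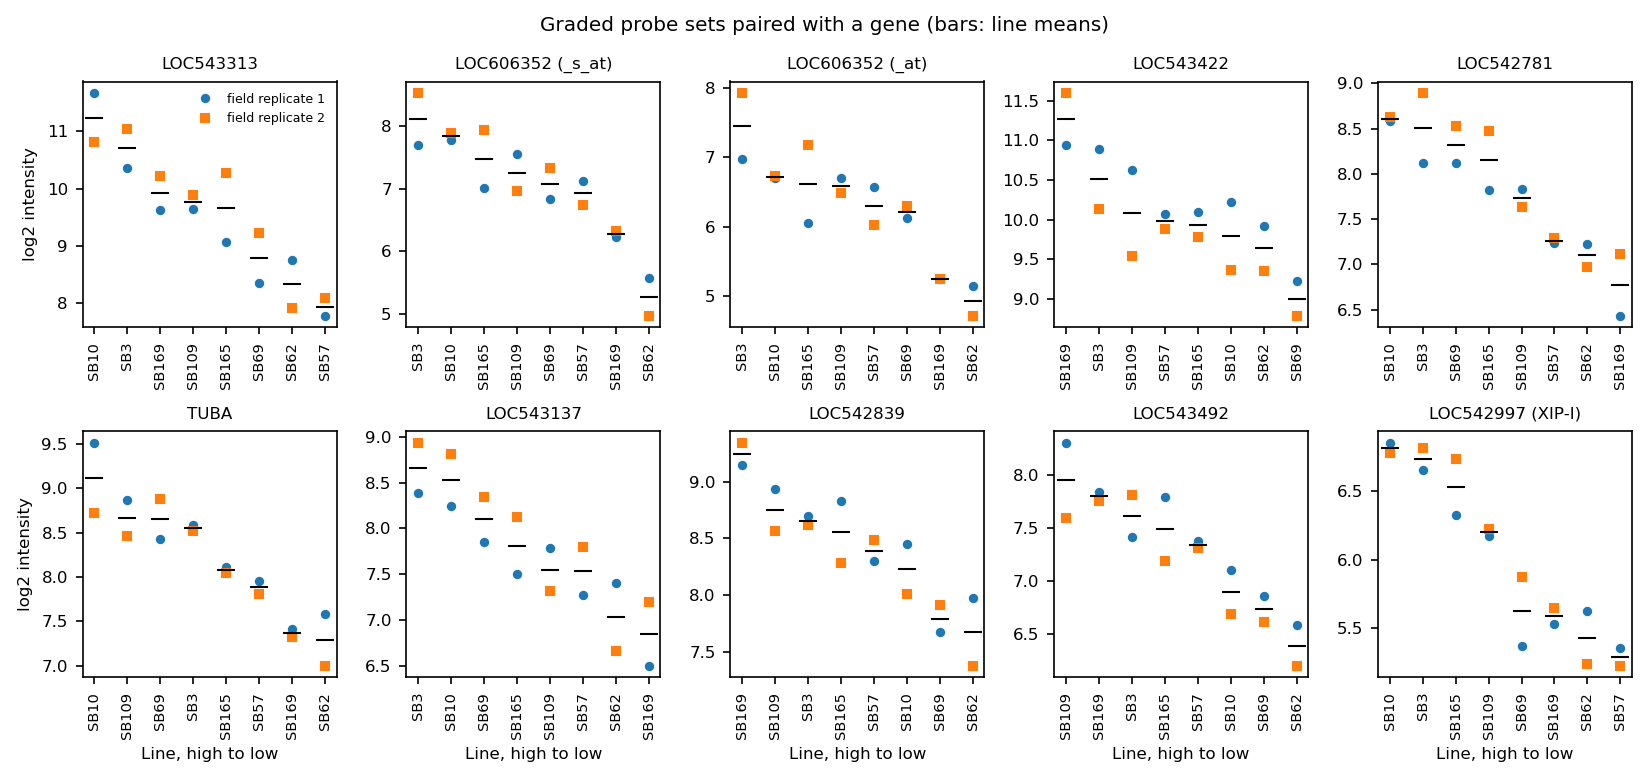
Log2 intensity of the 10 graded probe sets paired with a gene, by line from high to low; circles are field replicate 1, squares field replicate 2 and bars the line means. The points of most neighbouring lines overlap or lie close, while the ends of the order stand 1.52 to 3.31 log2 units apart.

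The 97 members without a gene included the widest differences. The widest, Ta.8828.1.S1_at, named here after its values were seen, stood at 9.14 and 9.42 in SB10, 8.55 and 8.68 in SB3, 7.66 and 8.59 in SB69, 8.29 and 7.71 in SB109, 7.04 and 8.91 in SB165, 5.84 and 6.18 in SB169, 5.55 and 5.60 in SB57, and 4.97 and 2.82 in SB62. SB10 stood alone on top, SB3, SB69, SB109 and SB165 overlapped in turn, and SB169, SB57 and SB62 were each lower than the line before without overlap. SB62 replicate 2 was near the dim end of the scale, where RMA compresses differences, and without that array's 2.82 the low end would lie at 4.97. The sister probe set with the suffix _x_at, which can share probes with it, was the second widest at 5.09 log2 units. Members shared identifier clusters in this way in 23 cases, and the 107 came from 95 clusters. A further probe set of the Ta.8828 cluster spanned 4.17 log2 units but was no member, as its largest gap of 40.7% just missed the limit.

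Sequence-related readouts outside the rule were also compared. Of the members, 26 (24.3%) had identifiers ending in _x_at, which marks probes that also match other sequences, against 12 of 94 (12.8%) on-off probe sets and 18.8% of all probe sets with a mean of at least 6. The 80 probe sets between had 21 (26.25%), so the share is not particular to graded members. Any of the suffixes _x_at, _s_at and _a_at was carried by 41.1% of graded members and 41.25% of the 80. The shares were 30.9% in on-off probe sets and 39.2% in all with a mean of at least 6. In the first pattern _x_at was carried by 18 of 54 members. Where a member's identifier cluster held a further probe set with a mean of at least 6 outside the 281, its line means followed the member at a median r of 0.93 in 56 comparisons for 31 members. For the on-off probe sets the median r was 0.462 in 84 comparisons for 32 probe sets. The 80 probe sets between gave 0.685 in 33 comparisons for 20 probe sets. The further probe sets spanned a median of 60.3% of the member's range beside graded members, against 38.8% beside the 80 between and 16.8% beside on-off probe sets. Probe sets of a cluster can share probes and all come from the same arrays, so these correlations are a description.

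Members within each pattern varied together between lines and also between plots of a line. Over all 5671 pairs of members the median correlation of the line means was 0.282, with 27.4% of pairs over 0.7 and 2.65% under -0.7. Among the 63 members without the suffixes _x_at, _s_at and _a_at the median was 0.125. For the on-off probe sets the median was 0.00 and 8.28% of pairs were over 0.7. The 80 probe sets between lay nearer to the graded ones, with a median of 0.225 and 15.6% of pairs over 0.7. Within the first pattern the median was 0.85, within the second 0.785, both fixed in part by the grouping, and between the patterns 0.09. The differences between field replicates (replicate 2 minus replicate 1 in each line), whose direction neither the rule nor the grouping used, correlated at a median of 0.208 over all member pairs, of which 34.4% were negative, against 0.167 in the 80 probe sets between and 0.09 in the on-off ones. The median was 0.495 within the first pattern and 0.438 within the second, against 0.142 among the other 25 members. Member pairs whose line means correlated over 0.7 had a median correlation of replicate differences of 0.531, and those under -0.7 had -0.40. All these correlations run over 8 points that share arrays and plots. With single arrays left out and the rule applied again, the median over all pairs was 0.153 without SB62 replicate 2, 0.426 without SB62 replicate 1 and 0.518 without SB3 replicate 1.

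Read without SB165 and SB3, the lines whose replicates stood apart, the members' correlations of line means over the 6 remaining lines had a median of 0.29, with 0.87 within the first pattern and 0.845 within the second. The correlations of replicate differences were then 0.462 and 0.556 within these patterns. Of the 107 members, 98 still spanned at least 1.5 log2 units over the 6 lines, but only 68 still had a largest gap of at most 40%. With the rule applied again to the 6 lines, 112 probe sets were graded, 61 of them among the 107, and their median correlation was 0.705. Among the 107 members as first chosen, read over these 6 lines, SB10 was highest in 58 and SB62 lowest in 54.

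The first pattern ran along the main axis of the brighter probe sets that were no members, the second did not. Over the 8 lines, the first principal component of the 30450 such probe sets with a mean above the median of all correlated with the line means of first-pattern members at a median of 0.913 (0.676 to 0.975). For the second pattern the median was 0.10 (-0.551 to 0.508), and for the on-off probe sets 0.19. The sign of the component was set so that SB10 stood above SB62. Among 17733 other probe sets with a mean of at least 6, 2602 (14.7%) correlated with this component over 0.7 and 2688 under -0.7. The part of this component in the first pattern was not tested.

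COMT1, the caffeic acid O-methyltransferase of lignin monomer synthesis and no member, correlated at 0.97 with the mean of the first pattern over the 8 lines. Its range was narrow, at 0.67 log2 units, and it averaged 13.01 ± 0.04 in SB10 and 12.33 ± 0.08 in SB62 (SD, n = 2 each). It was not called in limma's F-test (adjusted p = 0.0633), and its level shares the arrays with the members. The middle probe set of the glucose-6-phosphate dehydrogenase control correlated with members of the first pattern at a median of 0.87, and that of sucrose synthase at 0.782. With the second pattern their medians were 0.333 and -0.235. Among the 17733 other probe sets with a mean of at least 6, the medians were -0.106 and -0.148. Of these, 2768 and 1738 correlated with the 2 controls over 0.7, against 53 and 40 of the 54 members of the first pattern.

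PR5, a thaumatin-like pathogenesis-related protein, correlated at 0.96 with the mean of the second pattern. It stood at 10.79 and 11.16 in SB169, 10.72 and 10.36 in SB3, 10.54 and 9.23 in SB10, 10.14 and 9.73 in SB109, 9.93 and 10.12 in SB57, 9.92 and 9.84 in SB165, 9.72 and 9.27 in SB62, and 9.34 and 9.13 in SB69. Its span was 1.74 log2 units with a largest gap of 29.7%, and it passed limma's F-test over the 8 lines (adjusted p = 0.0333), but the replicates of SB10 differed by 74.8% of the range and kept it out of the members. SB169 alone lay above every other line in both arrays.

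The fructan exohydrolases, which release fructose from stored fructan, were not graded members either. The 1-FEH probe set averaged 11.26 ± 0.05 in SB62 and 10.68 ± 0.13 in SB169 (SD, n = 2 each; limma adjusted p = 0.0672). A 6-FEH probe set averaged 6.74 ± 0.12 in its highest line, SB169, and 5.24 ± 0.21 in its lowest, SB165 (SD, n = 2 each). The 3 probe sets of 6-FEH spanned 1.50, 1.55 and 0.41 log2 units with limma adjusted p-values of 0.174, 0.26 and 0.754. In all, 7 probe sets matched the listed pathway genes, with 4 for fructan, 1 for lignin, 1 for defence, 1 for stress (LEA, at a mean of 2.57) and 0 for the sucrose and resistance-like lists. None was a member, and PR5 was the 1 that passed the F-test.

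Graded and on-off differences were also set side by side by how many lines they resolved, which the gap limit in part fixes. All 107 members passed limma's F-test among lines at an adjusted p under 0.05, as did all 94 on-off probe sets, against 3.99% of all probe sets. The rule used this contrast, so nothing is read from those counts. Of the 28 pairs of lines, a median of 8 per member were called, against 15 per on-off probe set, where 1.1% of all such comparisons over the array were called. Between neighbours in a probe set's own order, 3 of the 107 members had a called pair, compared with 92 of the 94 on-off probe sets, each of them with 1. In the other 104 members no line was separated from the next in order, while lines farther apart were.

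The pairs resolved most often were SB62 and SB3 (83 members, where 2.82% of all probe sets were called), SB10 and SB62 (72 members, 3% of all) and SB169 and SB10 (69 members, 2.23% of all). Of the 72, 66 were higher in SB10 and 6 lower, where 2.28% of all probe sets were called higher and 0.723% lower. SB165 and SB3 were resolved least often, in 8 members, where 0.475% of all probe sets were called. In the second pattern, SB169 and SB69 were resolved in 27 of the 28 members, against 9 of the 54 in the first, where 1.83% of all probe sets were called.

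Replicate differences filled much of the space between lines. The largest difference between replicates of a line exceeded the largest gap between neighbouring lines in 86 of the 107 members, and in none of the 94 on-off probe sets, as the limits themselves require. It was a median of 40.6% of the range in graded members, against 26.2% in on-off probe sets. On the log2 scale it had a median of 0.75 in graded members and 0.67 in on-off probe sets, whereas the median ranges were 1.88 and 2.77. The line with the largest replicate difference was SB165 in 31 members and SB109 in 22. With replicate differences required to be under 25% of the range, 6 graded and 43 on-off probe sets were left. At 2 arrays per line the single steps of a member's order were therefore mostly not resolved.

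**Figure D4:**
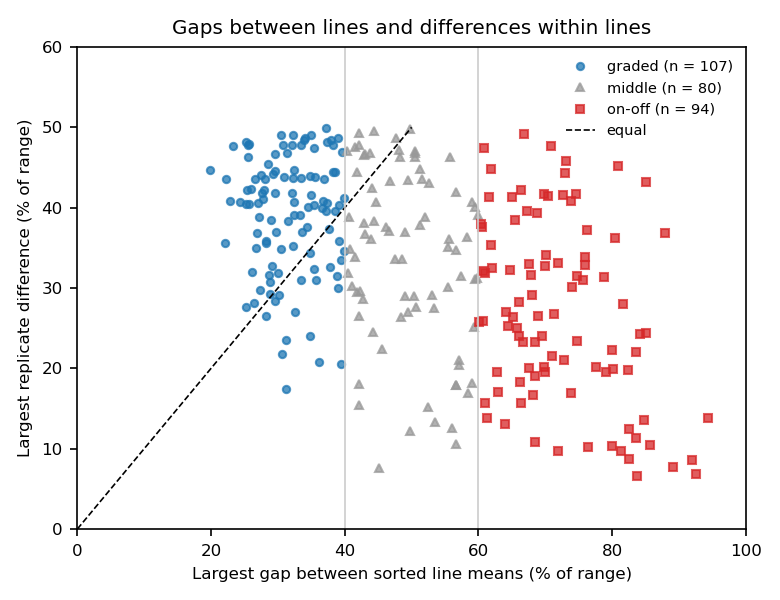
Largest gap between sorted line means against the largest replicate difference, both as a percentage of the range, for the 281 probe sets that met the other limits; grey lines mark gaps of 40% and 60% and the dashed line equality. Of the 107 graded probe sets, 86 lie above the dashed line, and none of the 94 on-off probe sets does.

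To read the order in arrays that had not chosen it, probe sets were picked on 1 field replicate by level, range and gap and read in the other. The 333 picked as graded on replicate 1 had a median Spearman correlation of 0.714 with the order in replicate 2, and the 610 picked on replicate 2 one of 0.667 with replicate 1. Only 69 and 82 of these were among the 107 members. Over all probe sets with a mean of at least 6 the median was 0.286 both ways. That comparison is not matched for range: their median range in the choosing replicate was 0.44 and 0.55 log2 units, against 1.99 and 2.16 in those picked as graded. The on-off probe sets picked in the same way gave Spearman medians of 0.69 (81 probe sets) and 0.714 (87). Pearson correlations, which weigh the size of a step, were higher in those picked as on-off: their medians were 0.737 and 0.669 in those picked as graded, against 0.963 and 0.956 in those picked as on-off. Of those picked as graded, 72.4% and 68.9% again had a largest gap of at most 40%, against 67.8% and 66.3% of all probe sets with a mean of at least 6. Because most probe sets have such gaps, these shares do not show that the graded form was kept. Gaps over 60% came back in 45.7% and 43.7% of those picked as on-off, against 2.97% and 3.48% of all. The same line was highest in both replicates in 31.2% and 23.6% of those picked as graded, and the same line lowest in 41.4% and 36.7%.

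A shared difference between field replicate 2 and field replicate 1 over all lines was not called in limma in any member, where 0.00164% of all probe sets were called. At an unadjusted p under 0.05 there were 25 members (23.4%), against 8.33% of all. The median difference was 0.13 log2 units in the first pattern, with 45 of 54 members higher in replicate 2, and -0.20 in the second, with 27 of 28 lower. The rule bounds the size of within-line differences, so these values describe a direction only, and all members share the same plots.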

How the data were processed

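RNA of wheat stem tops was measured on 16 Affymetrix arrays, 2 field replicates for each of 8 lines, 1 array per plot. The authors deposited a normalized intensity for every probe set of an array. Per the submitters' processing notes the tools were GCOS and RMA, whose versions and order are not given in the sources used here. That the scale is linear was inferred from the values. RMA compresses differences of dim probe sets, and probe sequences were not used here. The 174 probe sets not starting with Ta. or TaAffx. were left out of the fits, values were set to at least 1 and log2-transformed, and 61115 probe sets were fitted with limma 3.58.1 in R 4.3.3: 1 mean per line, eBayes with intensity trend, a moderated F-test, 28 pair contrasts and a replicate term, each with Benjamini-Hochberg adjustment over all probe sets. The fit was also run on simulated data with independent noise and shifts in SB10 only. Such data lack the correlated replicate differences of the real arrays, so the simulation does not cover them. The other steps used Python 3.11.15 (scipy 1.17.1, numpy 2.4.6, pandas 2.3.3) and, for plots, matplotlib 3.10.9. Replicates are separate plots, and their number limits the precision.

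GEO's platform annotation pairs 1273 probe sets with 1 gene each and none with several, and 59842 wheat probe sets are unnamed here. Of the 1273, 1272 matched the table of IWGSC CS RefSeq v2.1, from which symbols and synonyms were taken. All 10 members with a gene are named, as the rule for named genes asked for up to 20, and Ta.8828.1.S1_at was added after its values were seen. Gene lists (fructan, sucrose, lignin, defence, stress, resistance-like) and tissue markers were matched by symbol or synonym. The members, lists and line pairs were chosen with earlier results of these data known.

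The alternatives were the replicate block, quantile normalization, median centring, other limits in the rule, removal of probe sets with suffixes, a filter on dim ones, no trend, a stricter threshold and each array left out. Reading without SB165 and SB3 was added after the data were seen.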

Additional observations from a re-analysis of the deposited data

How the results depend on the processing

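Counts below are of probe sets, and where no cause follows from the setting itself the cause was not tested. The 107 graded members became 63 without suffixes _x_at, _s_at and _a_at (63 of them called by the F-test), 61 at a mean of at least 7, 254 and 49 at ranges of at least 1 and 2, 43 at a gap of at most 30%, and 6 with replicate differences under 25% of the range. The 94 on-off probe sets became 150 and 47 at means of at least 5 and 7, 43 with replicate differences under 25% and 48 at gaps over 70%. Other limits and normalizations kept both within 1.5 times. The 2441 calls among lines became 1253 at an adjusted p under 0.01 and 1429 with the filter on dim probe sets, where fewer were tested; the median of 8 line pairs called per member became 5 at 0.01. The 1 call between field replicates became 0 at 0.01 and 0 after centring.

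The median correlation among members, 0.282, was 0.202 after quantile normalization, 0.314 after centring, 0.125 without suffixes, 0.217 and 0.24 at means of at least 5 and 7, 0.186 and 0.331 at ranges of at least 1 and 2, 0.012 among the 6 members with replicate differences under 25%, 0.188 with a pseudocount of 16, and 0.353 and 0.313 at gaps of at most 30% and 50%. Within the first pattern it stayed at 0.829 over the 27 members without suffixes. With the rule applied to the 6 lines without SB165 and SB3, 112 graded members were found, 61 of them among the 107, with a median of 0.705. The held-out order was 0.667 with replicate 2 as the choosing one.

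Leaving out each array in turn gave 100 to 179 graded members, of which 84 to 102 were among the 107. The count was 179 without SB165 replicate 1 and also without SB165 replicate 2, and 170 without SB3 replicate 1, where the limit on replicate differences no longer bound that line. On-off probe sets ran from 78 to 98, the median correlation from 0.153 to 0.518, calls among lines from 1711 to 3976 (without SB3 replicate 1), members called from 103 to 107, pairs per member from 6 to 9 and calls between field replicates from 0 to 3. With the replicate block, 2924 probe sets differed among lines, the 107 members among them, and the median number of pairs per member was 9. The main fit did not take the field replicate numbers as pairing the samples. Replicate differences correlated over 0.1 in 16 of 28 pairs of lines (median 0.157, from -0.412 to 0.664). These values do not settle whether the numbers pair the samples, so the fit with the replicate block is given beside the main one.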
